A study of Mus musculus with 2 samples.

Results

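The 10 genes described here encode the isozymes of hexokinase (Hk1, Hk2), phosphofructokinase (Pfkl, Pfkm, Pfkp), aldolase (Aldoa, Aldoc) and lactate dehydrogenase (Ldha, Ldhb), and the lactate exporter Slc16a3. They were chosen by gene symbol, and their symbols stand on 11 of the 19595 gene entries of the deposited count table, because 2 gene IDs carry the symbol Aldoa. Messenger RNA was sequenced from neural stem cells that had been taken from embryonic brains (day 13) of the ICR mouse strain. The sh1 library holds cells with Ccdc25, a coiled-coil domain protein, knocked down (genotype label KO), and the psicor library holds control cells (genotype label WT). The study is about Ccdc25 in neurogenesis. Although the design text speaks of triplicates, the table has 1 column of counts per group, and whether that is a single culture or a pool is not given.

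Glycolysis splits glucose into pyruvate in the cytosol, and lactate dehydrogenase interconverts pyruvate and lactate. Several of its steps are run by isozymes encoded by separate genes, which differ in tissue, kinetics and control. In the adult brain, aldolase C and the enzymes of glycogen are known from astrocytes, the B subunit of lactate dehydrogenase is known for favouring the use of lactate, and the A subunit for favouring its production. Monocarboxylate transporters carry lactate across the cell membrane, and the one encoded by Slc16a3 is known as the exporter of strongly glycolytic cells and of astrocytes.

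With 1 library per group no difference had a replicate check, no test was made, and each 95% interval below covers counting error only. Total counts were 16058407 in sh1 and 16549682 in psicor, and levels are given as counts per 1000000 (CPM) after scaling both libraries with TMM factors. Ccdc25 itself stood at 26.1 CPM in sh1 and 32.8 CPM in psicor, a ratio of 0.794 (0.697 to 0.904), and 23.8% of the 5109 genes with a mean level within 2-fold of its own lay as low or lower. The neural stem cell markers Sox2, Nes, Pax6, Vim and Fabp7 were all present, at a summed level of 7550 CPM in sh1 and 6053 CPM in psicor. In RNA from whole cultures, fewer cells of a type and less RNA per cell cannot be told apart, which holds for every difference below.

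Markers of several cell types differed between the same libraries. All 6 astrocyte markers had counting intervals of the ratio above 1, as had 33.2% of the 14158 genes averaging 1 CPM or more. Their summed level was 1475 CPM in sh1 and 538 CPM in psicor, and Gfap alone stood at 481 CPM in sh1 and 3.09 CPM in psicor. All 6 markers of the oligodendrocyte lineage had intervals above 1 as well, at a summed 4375 CPM in sh1 and 2878 CPM in psicor. Of 7 neuron markers, 6 had intervals below 1 (33.6% of the 14158 genes had), at a summed 1156 CPM in sh1 and 2598 CPM in psicor. So had all 5 markers of dividing cells in G2 and M phase, at 643 CPM in sh1 and 1106 CPM in psicor. Mesenchyme markers were lower, at 38.3 CPM in sh1 and 319 CPM in psicor with Lum at 0 in sh1, and so were microglia and macrophage markers, at 11.7 CPM in sh1 and 35.5 CPM in psicor with Cx3cr1, Csf1r and Ptprc at 0 in sh1. Endothelial markers summed to 1.14 CPM in sh1 and 2.37 CPM in psicor with Cdh5 at 0 in sh1, and the muscle markers Myh3 and Actn3 to 1.46 CPM in sh1 and 0.890 CPM in psicor. The erythroid gene Hba-a1 had 3 counts in sh1 and 2 in psicor. With 1 library per group these markers move with every isozyme difference below, and their part in the result was not tested.

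The bases before the start sites of the lactate dehydrogenase pair and of the lactate exporter are shown because the 2 dehydrogenase genes differed in opposite directions between the libraries, while Slc16a3 had the highest ratio of the 10 genes. Each line is the 250 bases before a RefSeq start site on the gene's own strand (GRCm38.p6). Capitals mark ACGTG or its reverse complement CACGT, the core of the sites bound by hypoxia-inducible factors, and the 2 overlap where the letters read CACGTG, a palindrome also bound by E-box factors. The Ldha window is chr7:46845554-46845803 on the plus strand, the Ldhb window chr6:142507958-142508207 on the minus strand, and the Slc16a3 window chr11:120948817-120949066 on the plus strand.
Ldha: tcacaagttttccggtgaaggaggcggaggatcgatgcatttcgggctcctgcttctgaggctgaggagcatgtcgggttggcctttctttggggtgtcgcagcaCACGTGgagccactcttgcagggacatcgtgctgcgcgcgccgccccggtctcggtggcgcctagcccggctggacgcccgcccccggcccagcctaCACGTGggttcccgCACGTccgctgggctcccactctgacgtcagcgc
Ldhb: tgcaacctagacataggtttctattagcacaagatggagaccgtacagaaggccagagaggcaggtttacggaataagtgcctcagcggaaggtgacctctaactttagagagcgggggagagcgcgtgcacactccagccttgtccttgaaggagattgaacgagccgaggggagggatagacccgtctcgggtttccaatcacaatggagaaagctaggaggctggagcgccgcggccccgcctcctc
Slc16a3: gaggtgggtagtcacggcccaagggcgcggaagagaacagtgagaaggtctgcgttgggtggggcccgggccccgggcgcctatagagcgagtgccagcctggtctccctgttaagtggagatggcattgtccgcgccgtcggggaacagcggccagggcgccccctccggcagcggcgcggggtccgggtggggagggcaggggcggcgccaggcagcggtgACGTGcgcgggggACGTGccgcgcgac
The Ldha window holds the motif at 3 places and the Slc16a3 window at 2 places, 27 and 14 bases before the start (the last 14 bases of that window lie in an annotated exon), while the Ldhb window holds none. Of all 32851 RefSeq windows of this length, 16.6% hold ACGTG on either strand. Among the 10 genes, 5 hold it in the window at their best supported start, namely Hk2, Pfkm, Aldoa, Ldha and Slc16a3. The related core GCGTG, searched on both strands as well, is in 28.2% of all windows and in 4 of those 10, among them Ldhb, while the Ldha and Slc16a3 windows shown above hold none. These matches describe letters in the windows and are not evidence of binding.

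The largest differences among the 10 genes were higher Slc16a3 and Aldoc and lower Pfkp in the sh1 library. Of the 10, 2 were at least 2-fold higher in sh1, where 7.64% of the 14158 genes averaging 1 CPM or more were, and 1 was at least 2-fold lower, where 7.76% of all genes were. The other 7 lay within 2-fold. Past 1.5-fold, 3 of the 10 were higher, Ldhb being the third (16.0% of all genes), and Pfkp was again the 1 lower (15.7% of all genes). The counting interval of the ratio lay above 1 for 5 genes (33.2% of all genes) and below 1 for 5 genes (33.6% of all genes). All 10 intervals thus left out 1, if reads are taken as independent. The median log2 ratio of the 10 was -0.02, beside -0.004 over all genes.

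**Figure D1:**
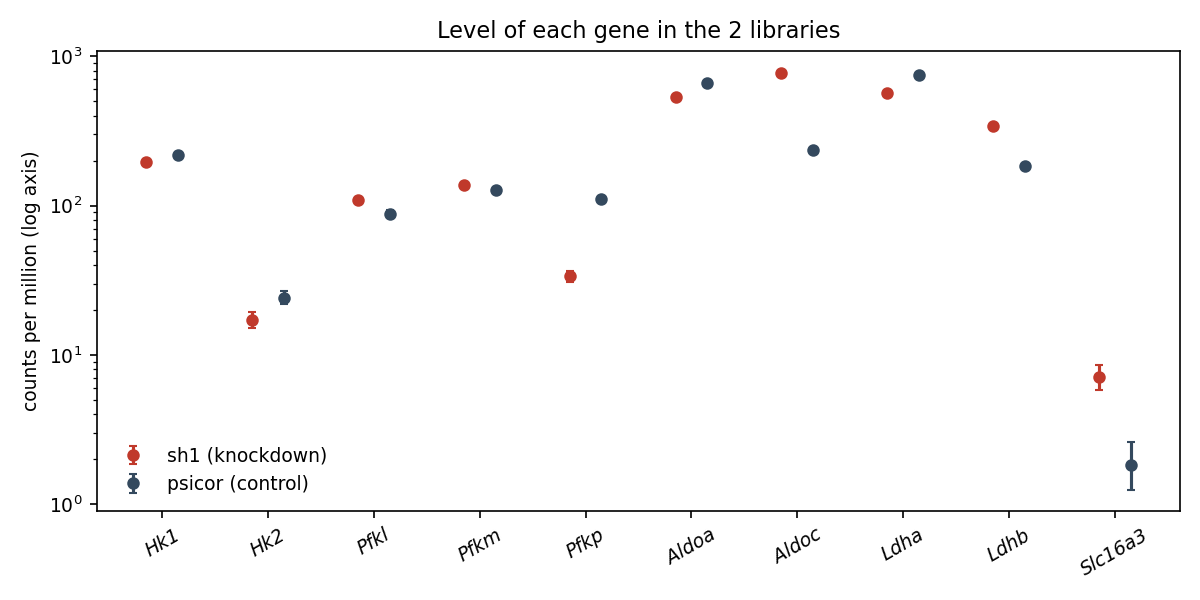
Level of each gene in CPM on a log axis, with the sh1 library (red) left of the psicor library (dark blue) and exact Poisson 95% intervals as bars, which are hidden by the points where counts are high. Aldoc, Ldhb and Slc16a3 stand clearly higher in sh1, and Pfkp stands at 33.6 CPM in sh1 and 110.8 CPM in psicor.

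**Figure D2:**
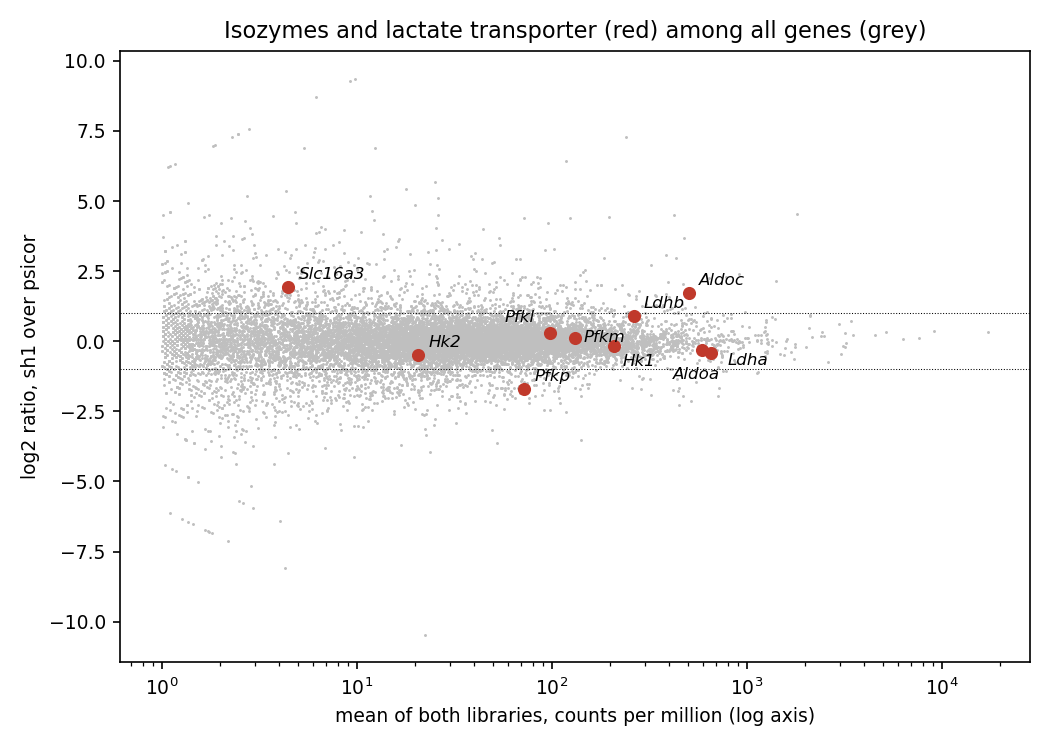
Log2 ratio of sh1 over psicor against the mean level of both libraries for the 14158 genes averaging 1 CPM or more (grey) and the 10 genes described here (red), with dotted lines at 2-fold. Aldoc lies at the upper edge of the abundant genes, Pfkp at the lower edge of genes of its level, and Hk1, Pfkm and Pfkl lie in the middle of the cloud.

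Hexokinase, which phosphorylates glucose on entry, differed least in its isozyme makeup. Gene positions here and below are those of the table, on GRCm38. Hk1 (ENSMUSG00000037012, chromosome 10, 62268855 to 62379908, minus strand), the general hexokinase of brain, had 3109 counts in sh1 and 3698 in psicor, which is 197 CPM in sh1 and 219 CPM in psicor. Its ratio was 0.898 (0.856 to 0.943). Hk2 (ENSMUSG00000000628, chromosome 6, 82725025 to 82774454, minus strand), the regulated hexokinase of muscle and of many dividing cells, had 271 counts in sh1 and 408 in psicor, or 17.2 CPM in sh1 and 24.2 CPM in psicor, a ratio of 0.710 (0.606 to 0.830). Both genes were thus lower in sh1, Hk2 the more so of the pair. Per kilobase of exon, Hk2 made up 11.1% (9.88% to 12.4%) of the pair in sh1 and 13.6% (12.4% to 14.9%) in psicor, so Hk1 was the main hexokinase transcript in both libraries. The quotient of Hk2 to Hk1 counts in sh1 was 0.790 (0.670 to 0.931) of that in psicor, a comparison that needs neither gene length nor library scaling. Hk1 shares 157 exonic bases with the antisense gene Hk1os, which had 24 counts in sh1 and 12 in psicor.

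Phosphofructokinase, the committed step of glycolysis, differed most in its platelet-type gene. Pfkp (ENSMUSG00000021196, chromosome 13, 6579768 to 6648777, minus strand) had 530 counts in sh1 and 1868 in psicor, or 33.6 CPM in sh1 and 110.8 CPM in psicor. Its ratio of 0.303 (0.275 to 0.334) corresponds to a log2 ratio of -1.72, and 0.821% of the 4629 genes with a mean level within 2-fold of its own lay as low or lower. The muscle-type gene Pfkm (ENSMUSG00000033065, chromosome 15, 98092589 to 98132447, plus strand) had 2170 counts in sh1 and 2143 in psicor, or 137.6 CPM in sh1 and 127 CPM in psicor, a ratio of 1.08 (1.02 to 1.15). The liver-type gene Pfkl (ENSMUSG00000020277, chromosome 10, 77986947 to 78010083, minus strand) had 1715 counts in sh1 and 1489 in psicor, or 108.7 CPM in sh1 and 88.4 CPM in psicor, a ratio of 1.23 (1.15 to 1.32). Both lay slightly higher in sh1, and 24.2% of the genes of Pfkl's level lay as high or higher.

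Per kilobase of exon, Pfkp made up 4.18% of phosphofructokinase transcripts in sh1 and 13.9% in psicor. Pfkm made up 68.7% in sh1 and 63.9% in psicor, and Pfkl 27.2% in sh1 and 22.2% in psicor. The order Pfkm, Pfkl, Pfkp was therefore the same in both libraries, and it was the same when the longest transcript was used as the length. It depends on the length correction, since in raw counts Pfkp stood before Pfkl in psicor, at 34.0% and 27.1%. The quotient of Pfkp to Pfkl counts in sh1 was 0.246 (0.218 to 0.278) of that in psicor, and that of Pfkp to Pfkm 0.280 (0.250 to 0.314). The sum of the 3 genes was 60.0 CPM per kilobase in sh1 and 59.6 in psicor, while their summed counts had a ratio of 0.858 (0.824 to 0.893), since counts give the long Pfkp more weight. Pfkp shares 748 exonic bases with Pitrm1 on the opposite strand, which had 1477 counts in sh1 and 1823 in psicor. Since the labels do not say whether reads were counted by strand, the exact Pfkp ratio is uncertain. Pfkm shares 18 exonic bases with Senp1 on the opposite strand and 341 with Gm26513, a gene of antisense biotype on the same strand as Pfkm, which had 3 counts in sh1 and 2 in psicor.

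Aldolase, which cleaves the doubly phosphorylated sugar into trioses, had the largest difference in isozyme shares of the 4 enzymes. Aldoc (ENSMUSG00000017390, chromosome 11, 78322968 to 78327781, plus strand), the brain aldolase, had 12202 counts in sh1 and 3965 in psicor, or 774 CPM in sh1 and 235 CPM in psicor. Its ratio was 3.29 (3.17 to 3.41), a log2 ratio of 1.72, and 1.85% of the 594 genes of like level were as high or higher. Aldoa (ENSMUSG00000030695, chromosome 7, 126795234 to 126800751, minus strand), the aldolase of muscle and most growing tissues, had 8345 counts in sh1 and 11089 in psicor, or 529 CPM in sh1 and 658 CPM in psicor, a ratio of 0.804 (0.782 to 0.827). The second gene entry named Aldoa (ENSMUSG00000114515, chromosome 7, 126800790 to 126809108, minus strand) lies just upstream and had 71 counts in sh1 and 62 in psicor. Aldoa shares 25 exonic bases with Fam57b on the opposite strand, which had 1062 counts in sh1 and 2259 in psicor.

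Aldoc made up 56.6% (55.9% to 57.3%) of the pair per kilobase of exon in sh1 and 24.2% (23.5% to 24.9%) in psicor. The quotient of Aldoc to Aldoa counts was 1.46 in sh1 and 0.358 in psicor, a 4.09-fold higher balance (3.91 to 4.28) in sh1. Which of the 2 led in sh1 depends on the length used, since Aldoc made up 44.8% in sh1 and 16.6% in psicor when each gene was divided by its longest transcript. Aldoc was higher by more than Aldoa was lower, and the sum of both was 419 CPM per kilobase in sh1 and 298 in psicor. Aldolase was the enzyme among the 4 with the largest difference in its summed level, a ratio of 1.46 (1.43 to 1.49) in summed counts.

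**Figure D3:**
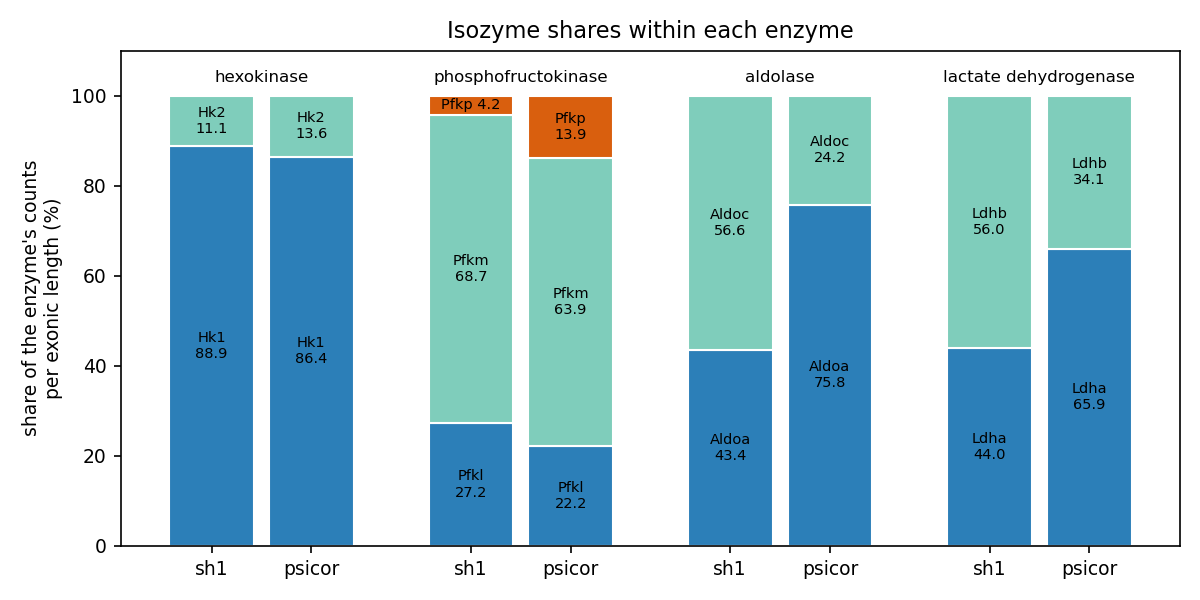
Share of each isozyme among its enzyme's counts per kilobase of exon, in percent, with the sh1 bar left of the psicor bar for each enzyme. Aldoc takes 56.6% of aldolase in sh1 and 24.2% in psicor, Ldhb takes 56.0% of lactate dehydrogenase in sh1 and 34.1% in psicor, and hexokinase is nearly alike in both.

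Lactate dehydrogenase is a tetramer of A and B subunits, and its 2 genes differed in opposite directions. Ldhb (ENSMUSG00000030246, chromosome 6, 142490249 to 142507957, minus strand), the heart-type B subunit, had 5397 counts in sh1 and 3092 in psicor, or 342 CPM in sh1 and 183 CPM in psicor, a ratio of 1.87 (1.78 to 1.95). Ldha (ENSMUSG00000063229, chromosome 7, 46841475 to 46855627, plus strand), the muscle-type A subunit, had 8934 counts in sh1 and 12616 in psicor, or 567 CPM in sh1 and 749 CPM in psicor, a ratio of 0.757 (0.736 to 0.778). Neither passed 2-fold. Of the genes of like level, 6.22% were as high as Ldhb or higher and 13.8% as low as Ldha or lower.

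Ldhb made up 56.0% (55.2% to 56.9%) of the pair per kilobase of exon in sh1 and 34.1% (33.2% to 35.0%) in psicor. The quotient of Ldhb to Ldha counts was 0.604 in sh1 and 0.245 in psicor, a 2.46-fold higher balance (2.34 to 2.60) in sh1. With the longest transcript as the length, Ldhb made up 45.7% in sh1 and 25.4% in psicor, so its majority in sh1 depends on the length. The direction cannot depend on it, since with 2 genes it follows the quotient of counts. The summed counts of both genes were close in the 2 libraries, with a ratio of 0.975 (0.953 to 0.997), and the sum per kilobase was 389 CPM per kilobase in sh1 and 343 in psicor. A pseudogene with at least 95% identity to Ldhb over at least 100 bases, Gm5514, had 516 counts in sh1 and 254 in psicor. The 3 listed copies of Ldha had 20 counts in sh1 and 27 in psicor together. Reads shared with such copies cannot be placed with certainty, and adding them kept the direction of both shares.

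Slc16a3 (ENSMUSG00000025161, chromosome 11, 120948480 to 120960868, plus strand) was the least abundant of the 10 genes and had their highest ratio. It had 112 counts in sh1 and 31 in psicor, or 7.10 CPM in sh1 and 1.84 CPM in psicor. The ratio was 3.86 (2.57 to 5.95), and 4.12% of the 2377 genes of like level were as high or higher. With 31 counts in psicor, its ratio had the widest counting interval of the 10. Per kilobase of exon it stood at 1.34 CPM per kilobase in sh1 and 0.346 in psicor.

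The other 2 widely studied brain transporters of lactate were lower in sh1. Slc16a1, the widely expressed monocarboxylate transporter, stood at 46.2 CPM in sh1 and 63.0 CPM in psicor, a ratio of 0.734 (0.667 to 0.807). Slc16a7, the high-affinity transporter known from neurons, had 43 counts in sh1 and 256 in psicor, a ratio of 0.179 (0.127 to 0.249), the lowest among the other genes of glycolysis and lactate transport past the minimum. Slc16a8, known from retinal pigment epithelium, had 22 counts in sh1 and 14 in psicor, a ratio of 1.68 (0.821 to 3.55). Per kilobase of exon, Slc16a1 made up 82.7% of the 4 transporter genes in sh1 and 87.7% in psicor, Slc16a3 10.6% in sh1 and 2.13% in psicor, and Slc16a7 1.82% in sh1 and 7.90% in psicor. The direction for Slc16a1 depends on the length correction, since in raw counts it made up 80.5% in sh1 and 77.9% in psicor. The quotient of Slc16a3 to Slc16a7 counts was 2.60 in sh1 and 0.121 in psicor, 21.5-fold higher (12.5 to 37.2) in sh1. Bsg, the chaperone that brings Slc16a1 and Slc16a3 to the membrane, stood at 397 CPM in sh1 and 357 CPM in psicor.

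**Figure D4:**
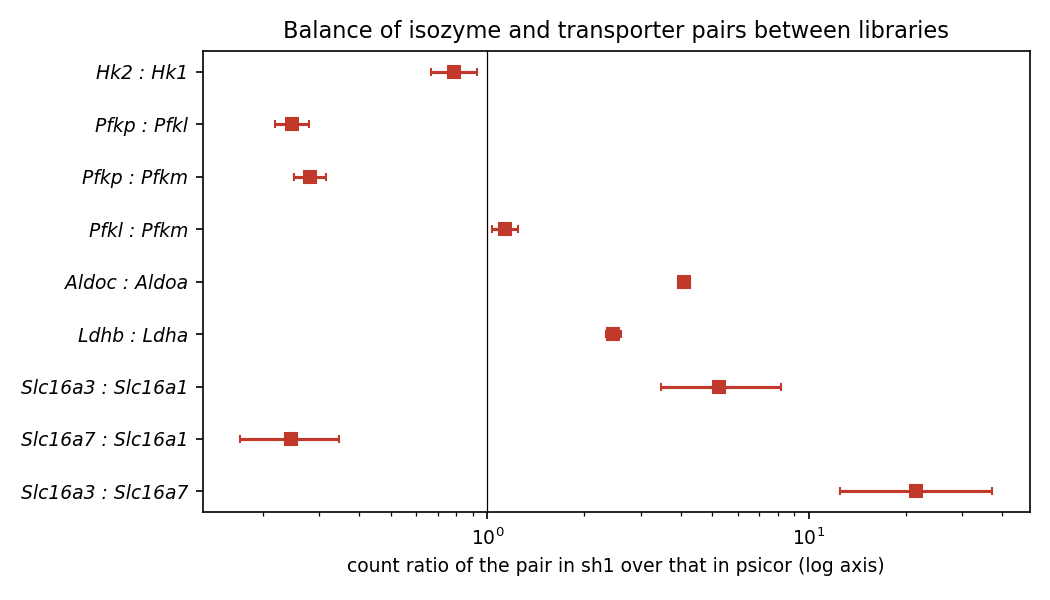
Count ratio of each gene pair in sh1 divided by the same ratio in psicor, on a log axis, with exact conditional 95% intervals as bars and a line at 1. Pfkp to Pfkl, Pfkp to Pfkm and Slc16a7 to Slc16a1 lie between 0.245 and 0.280, Ldhb to Ldha at 2.46, Aldoc to Aldoa at 4.09 and Slc16a3 to Slc16a7 at 21.5.

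Ranked per kilobase of exon, the 10 genes kept the same 4 leaders in both libraries in another order. In sh1 the order was Aldoc at 237, Ldhb at 218, Aldoa at 182 and Ldha at 171 CPM per kilobase. In psicor, Ldha and Aldoa led, both at 226 CPM per kilobase and within counting error of each other, before Ldhb at 117 and Aldoc at 72.1. Pfkm, Hk1 and Pfkl followed in that order in both, at 41.2, 23.1 and 16.3 CPM per kilobase in sh1 and 38.1, 25.7 and 13.2 in psicor. Hk2 and Pfkp changed places, with Hk2 at 2.88 and Pfkp at 2.51 CPM per kilobase in sh1, whose intervals overlap (2.55 to 3.24 and 2.30 to 2.73), and at 4.06 and 8.27 in psicor. The order depends on the length used. With the longest transcript, Aldoa led in both libraries, at 342 CPM per kilobase in sh1 and 425 in psicor, and Pfkp stood before Hk2 in both, at 3.87 and 3.12 in sh1 and 12.8 and 4.39 in psicor. Hk1 then stood after Pfkm in sh1, at 46.1 and 47.8, and before it in psicor, at 51.3 and 44.2 CPM per kilobase.

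Most of the rest of the glycolytic pathway lay within 2-fold. Of 41 other genes of glucose uptake, glycolysis and lactate transport, 30 averaged 1 CPM or more, and 28 of these lay within 2-fold, with 1 higher (7.64% of all genes were) and 1 lower (7.76% of all genes). Their median log2 ratio was -0.15. By step, the medians were -0.22 for 7 genes of the glucose carrier family and -0.17 for 4 enzymes of the phosphofructokinase activator. The triose steps (7 genes) had -0.14, enolase and pyruvate kinase (5 genes) -0.30, and 5 other genes of lactate transport 0.15. Eno1b, counted among the 30 genes and in the enolase median, shares its sequence with Eno1, so their 2 values are not independent. Slc2a1, the glucose carrier of glia and barrier cells, stood at 30.6 CPM in sh1 and 35.7 CPM in psicor, a ratio of 0.856 (0.757 to 0.966). Slc2a3, the glucose carrier known from neurons, had a ratio of 0.552 (0.481 to 0.633), and the intracellular carrier Slc2a8 had 1.74 (1.498 to 2.03). Slc2a4, the insulin-responsive carrier, had 21 counts in sh1 and 34 in psicor.

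Among steps with 1 main gene, Gpi1 and Pkm lay close to their control level, and Pgk1 and Gapdh lay below it. Gpi1, the isomerase between hexokinase and phosphofructokinase, stood at 567 CPM in sh1 and 552 CPM in psicor. Pgk1, phosphoglycerate kinase, stood at 548 CPM in sh1 and 628 CPM in psicor, a ratio of 0.872 (0.847 to 0.897). Pkm, which encodes both M-type pyruvate kinases and whose isoforms gene counts do not separate, stood at 1257 CPM in sh1 and 1299 CPM in psicor. Gapdh, the triose dehydrogenase, had 529 counts in sh1 and 758 in psicor, a ratio of 0.746 (0.666 to 0.834). However, 37 listed pseudogene copies of it held 12745 counts in sh1 and 17294 in psicor, so its own level is uncertain. The enolase retrocopy Eno1b, with a log2 ratio of -0.33, shares its sequence with Eno1 and was not read on its own.

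Ratios also differed among isozymes of the later steps, while the shares within enolase were close. Eno1, the main enolase transcript, stood at 619 CPM in sh1 and 763 CPM in psicor, a ratio of 0.811 (0.790 to 0.833). Its 3 listed copies held 10038 counts in sh1 and 12866 in psicor, so its own level is uncertain. Per kilobase of exon, Eno1 made up 88.6% of enolase in both libraries. Eno2 made up 6.69% in sh1 and 8.58% in psicor, and Eno3 4.66% in sh1 and 2.83% in psicor. Eno2, the enolase of neurons, stood at 40.9 CPM in sh1 and 64.7 CPM in psicor, a ratio of 0.632 (0.573 to 0.698), and Eno3, the enolase of muscle, had 166 counts in sh1 and 133 in psicor, a ratio of 1.33 (1.06 to 1.69). Pgam2, the muscle phosphoglycerate mutase, had 140 counts in sh1 and 56 in psicor, a ratio of 2.67 (1.95 to 3.71), the 1 gene of this group past 2-fold upwards. Bpgm, which makes bisphosphoglycerate, had a ratio of 1.35 (1.25 to 1.46). Among the bifunctional enzymes that set the level of the allosteric activator of phosphofructokinase, Pfkfb3 had a ratio of 1.19 (1.06 to 1.34) and Pfkfb4 of 0.652 (0.510 to 0.830). Tigar, a phosphatase of the same activator, had 0.752 (0.632 to 0.892).

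**Figure D5:**
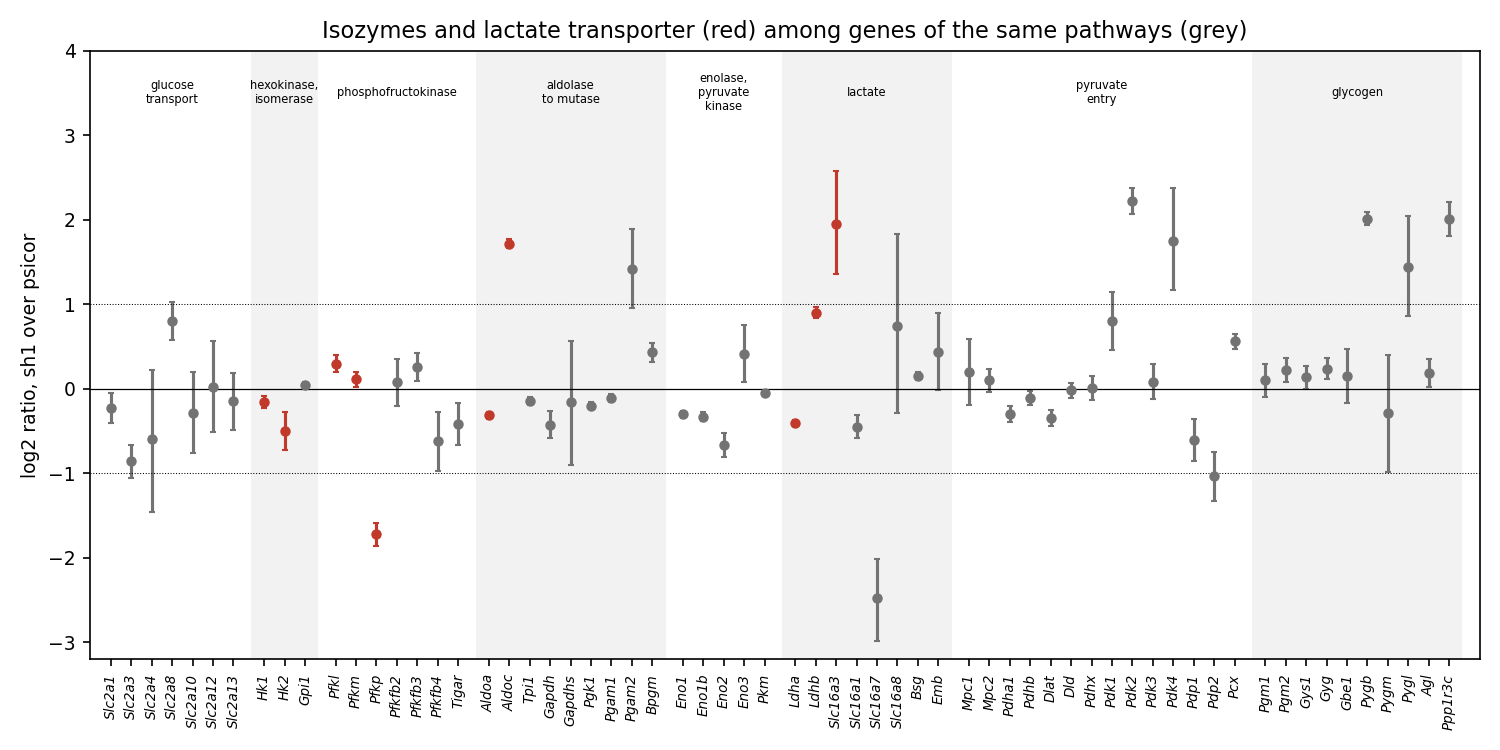
Log2 of the plain ratio of sh1 over psicor, with 95% counting intervals, for the isozymes and Slc16a3 (red) and other listed genes that averaged 1 CPM or more (grey), grouped by step from glucose transport to pyruvate entry and glycogen, with dotted lines at 2-fold (side branches, gluconeogenesis and hypoxia genes are not drawn). Most grey genes of glycolysis lie within 2-fold, while among the points drawn Slc16a7, with a ratio of 0.179, is the lowest and Pdk2, with 4.66, the highest.

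Around glycolysis, Pygb, Ppp1r3c and Pdk2 had the highest ratios among glycogen and pyruvate entry genes. Past 2-fold, 3 of 10 glycogen genes stood higher in sh1 (7.64% of all genes did) and none lower (7.76% of all genes), and the list's median log2 ratio was 0.20. Pygb, the glycogen phosphorylase of brain, stood at 367 CPM in sh1 and 90.7 CPM in psicor, a ratio of 4.04 (3.82 to 4.28). Ppp1r3c, a glycogen-targeting subunit of protein phosphatase, stood at 62.7 CPM in sh1 and 15.6 CPM in psicor, a ratio of 4.02 (3.504 to 4.62). Among 14 genes of pyruvate entry to mitochondria, 2 stood higher past 2-fold (Pdk2 and Pdk4) and 1 stood lower (Pdp2), 3 in all beside those 2 shares of all genes, and the median was 0.05. Pdk2, a kinase that inactivates pyruvate dehydrogenase, stood at 113 CPM in sh1 and 24.3 CPM in psicor, a ratio of 4.66 (4.19 to 5.21). Pdp2, a phosphatase that reactivates the complex, stood at 9.32 CPM in sh1 and 19.0 CPM in psicor, a ratio of 0.489 (0.3998 to 0.597). Dld, a subunit of that complex, stood at 132 CPM in sh1 and 134 CPM in psicor.

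Per kilobase of exon, Pdk2 made up 73.8% of the 4 pyruvate dehydrogenase kinase genes in sh1 and 42.8% in psicor, while Pdk3 made up 19.3% in sh1 and 49.4% in psicor. Pdk3 itself had 379 counts in sh1 and 382 in psicor. Pdk4, a kinase of the same family known from fasting, had 101 counts in sh1 and 32 in psicor, a ratio of 3.37 (2.25 to 5.19).

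Side branches of glycolysis differed by single genes. Of 7 pentose phosphate genes and 5 serine branch genes, none passed 2-fold (7.64% of all genes were higher and 7.76% lower). Their median log2 ratios were -0.08 and -0.09. Phgdh, which draws off phosphoglycerate for serine, stood at 570 CPM in sh1 and 359 CPM in psicor, a ratio of 1.59 (1.54 to 1.64), though 6 listed pseudogene copies of it held 1566 counts in sh1 and 1552 in psicor. Psph had 1.38 (1.24 to 1.53) and Shmt1 had 0.664 (0.603 to 0.730). Rpia, Rpe and Pgls of the pentose phosphate branch had 0.644 (0.549 to 0.755), 0.674 (0.590 to 0.770) and 0.886 (0.834 to 0.941), and Taldo1 had 1.02 (0.970 to 1.06). Gpd1, the cytosolic glycerol phosphate dehydrogenase known from oligodendrocytes, stood at 73.6 CPM in sh1 and 29.4 CPM in psicor, a ratio of 2.50 (2.25 to 2.78), while the median of its 3-gene list was -0.27. Among the 3 genes of gluconeogenesis past the minimum, Fbp1 had 34 counts in sh1 and 7 in psicor, a ratio of 5.19 (2.26 to 13.9), G6pc3 had 1.41 (1.27 to 1.57) and Pck2 1.17 (1.03 to 1.32), with a median log2 ratio of 0.50.

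Genes of the hypoxia response, a pathway for which Ldha and Slc16a3 are known targets, differed in both directions. Among the 14 past the minimum, 3 stood higher past 2-fold (7.64% of all genes) and 1 lower (7.76%), the interval of the ratio lay above 1 for 8 (33.2% of all genes) and below 1 for 5 (33.6%), and the median log2 ratio was 0.20. Ndrg1, a hypoxia-induced gene also known from oligodendrocytes, stood at 6.47 CPM in sh1 and 20.1 CPM in psicor, a ratio of 0.322 (0.256 to 0.404). Epas1, a hypoxia-inducible factor of glia and endothelium, had 2.27 (1.87 to 2.77), Mxi1 2.85 (2.56 to 3.18) and Egln1, the main oxygen sensor, 0.820 (0.761 to 0.883).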

How the data were processed

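RNA from 1 knockdown (sh1) and 1 control (psicor) library was measured. The authors deposited raw counts per gene, per the file headers. The deposited CPM are those counts per 1000000, with a count of 0 replaced by 0.5, and were used as an alternative only. The deposited fold ratio, its log2 and the deposited p-values were not used, since no test is named. Per the submitters' processing notes, Bowtie2 2.2.3, TopHat2 2.0.12, HTSeq 0.6.0 and mm9 were used, in an order not given. The table's gene positions are those of GRCm38, and 10 of the 11 entries have the start and end of GENCODE M21.

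Libraries were scaled over the whole table with TMM factors of edgeR 4.0.16 (0.982 for sh1, 1.018 for psicor). Log2 ratios used a prior count of 0.5, and genes averaging 1 CPM or more were compared by a fixed rule of 2-fold. Ratio intervals are exact conditional binomial (Clopper-Pearson), and those of pair quotients come from Fisher's conditional distribution (R 4.3.3). They cover counting error only and take reads as independent. Copies made by PCR are not independent molecules, so the intervals can be too narrow. A level of 3 counts is 0.190 CPM in sh1 and 0.178 CPM in psicor. Lengths are unions of GENCODE M21 exons. Of the 2 entries named Aldoa the one with more counts was used. Pseudogene copies were sought with BLAST 2.17.0. Promoters are from RefSeq (GRCm38.p6), and for genes with several starts the one with most GENCODE starts within 50 bases was taken.

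Named genes are all 10 members, list genes past 2-fold with a mean of at least 10 CPM, otherwise the 3 furthest from 0, and the most abundant per length of each list. Eno1, Pdk3 and Pdk4 fall outside that rule and were chosen after their values were seen. Some list genes are counted but not reported here. The members and lists were chosen with earlier results of these data known. Alternatives were DESeq2 1.42.0 size factors, total counts, the authors' CPM, no minimum or 10 CPM, a prior count of 5, 1.5-fold, and other lengths or isozyme sets. The calculation was tested on simulated data.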

Additional observations from a re-analysis of the deposited data

How the results depend on the processing

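No paired analysis was possible because there is 1 library per group, and for the same reason no replicate could be left out. All 60 member log2 ratios computed under the alternatives kept their sign, but not all of them could have changed it. A changed minimum only filters genes and leaves each ratio as it was. The authors' CPM are scaled by total counts as well, so they nearly repeat that alternative. Beyond the counting interval, total-count scaling moved the log2 ratio of Aldoa to -0.37, Aldoc to 1.67 and Ldha to -0.45, as did the authors' CPM (-0.37, 1.67 and -0.45). DESeq2 size factors and a prior count of 5 moved no value beyond it. With a minimum mean of 10 CPM, 1 member was at least 2-fold higher, Slc16a3 being left out, and the members' median was -0.15. Over all genes, 500 were then higher and 496 lower. With no minimum, 2286 and 2475 of 19595 genes were, and past 1.5-fold 2259 and 2218 of 14158 genes. The number of genes kept changes with the minimum, so these counts cannot be compared as shares. With no minimum the median was -0.41 for the enzymes of the phosphofructokinase activator and -0.15 for the other lactate genes. At 10 CPM these were 0.0751 and -0.15, and those of the other hexokinases and isomerase, gluconeogenesis and hypoxia lists 0.0400, 0.36 and 0.0212. In raw counts the share differences, sh1 minus psicor, were 11.8, 10.2 and -21.96 percentage points for Pfkl, Pfkm and Pfkp, and -18.0 and 18.0 for Ldha and Ldhb. With longest transcripts they were -28.3 and 28.3 for Aldoa and Aldoc, and -20.2 and 20.2 for Ldha and Ldhb. No share difference within the 4 enzymes changed direction, but for the enzymes with 2 genes a change of length could not reverse it. Each gene is divided by the same length in both libraries, so the direction there follows the quotient of counts. Among the transporters, the share difference of Slc16a1 was -4.98 points per length and 2.55 in raw counts. Summing both Aldoa entries, or adding the pseudogene copies, which was chosen after seeing the data, moved no value beyond counting error. Of the 10 ratios, that of Slc16a3, with 31 counts in psicor, had the widest counting interval.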
